A study of Mus musculus with 6 samples.

Results

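Levels of 192 long intergenic noncoding RNAs (lincRNAs) were described in BV2, an immortalised line of mouse microglia. They were chosen by their mean level, at least 1 FPKM (fragments per kilobase of transcript, scaled to library size): they are the rows of a table of 12327 genes that GENCODE M21 annotates as lincRNA and whose mean over 6 libraries reached that level. Of 336 lincRNA rows, 204 reached it, and 12 of these, well-studied transcripts or hosts of small RNAs, were left out by name (Malat1, Neat1, Pvt1, Lncpint, Jpx, Ftx, Snhg6, Snhg10, Snhg12, Snhg20, Mir17hg and Mir142hg). The choice used the level over all 6 libraries and not the difference between groups, so levels below are a description without a test.

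The knockdown group (3 libraries, genotype GCH1-KD) came from BV2 cells infected for 48 hours with an adenovirus (group name Ad-shGCH1), and the negative control group (3 libraries) from cells of the same subline (group name Ad-NC). The series text calls the control cells wild type, and it is unclear from the labels whether they received a virus. Both groups grew in the same high-glucose serum medium, and their total RNA was depleted of ribosomal RNA before stranded libraries were made. All libraries are of 1 cell line. Since separate cultures are not stated for the libraries of a group, the p-values below cover the variation among these libraries, which may be technical.

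The targeted enzyme, GTP cyclohydrolase I, limits the rate at which cells make tetrahydrobiopterin. LincRNAs are capped, usually spliced transcripts from the stretches between protein-coding genes that have no long open reading frame. Many are kept at low levels in the nucleus, and many are made from the same nucleosome-free region as a coding gene, read in the other direction, or from enhancers near one. For that reason a lincRNA is usually described together with its coding neighbour. In microglia and macrophages, many such loci are opened by the lineage factor PU.1, which binds a purine-rich ETS motif.

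Promoter windows are shown for lincRNAs whose difference between groups or promoter letters are described below. RefSeq (GRCm38.p6) held a window, 250 bases before to 50 bases after the start, for 80 of the 192 lincRNAs, matched by symbol, chromosome and strand. Each window is written 5′ to 3′ on the strand of the RNA, and capitals mark the motif named for it.
2010320M18Rik, Gm26698 and 5430416N02Rik were among the lincRNAs with higher values in the knockdown libraries. The first (chr8:70776612-70776911, plus strand) faces away from the coding gene Pik3r2 and held none of the 6 motifs searched. The second (chr12:86892518-86892817, minus strand) has a GC box in capitals, and the third (chr5:100429486-100429785, minus strand) an ETS core in capitals.
2010320M18Rik: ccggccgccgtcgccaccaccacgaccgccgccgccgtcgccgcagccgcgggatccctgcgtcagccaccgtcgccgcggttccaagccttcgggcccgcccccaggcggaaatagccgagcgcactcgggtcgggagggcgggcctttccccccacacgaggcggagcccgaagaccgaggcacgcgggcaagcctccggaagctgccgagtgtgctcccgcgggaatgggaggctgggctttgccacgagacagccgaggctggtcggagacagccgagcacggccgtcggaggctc
Gm26698: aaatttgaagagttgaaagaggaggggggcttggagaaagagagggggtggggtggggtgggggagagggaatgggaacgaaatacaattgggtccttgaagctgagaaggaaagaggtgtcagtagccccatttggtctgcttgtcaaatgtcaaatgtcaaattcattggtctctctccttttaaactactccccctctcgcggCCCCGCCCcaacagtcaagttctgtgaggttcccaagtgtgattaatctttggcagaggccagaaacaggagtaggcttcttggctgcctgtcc
5430416N02Rik: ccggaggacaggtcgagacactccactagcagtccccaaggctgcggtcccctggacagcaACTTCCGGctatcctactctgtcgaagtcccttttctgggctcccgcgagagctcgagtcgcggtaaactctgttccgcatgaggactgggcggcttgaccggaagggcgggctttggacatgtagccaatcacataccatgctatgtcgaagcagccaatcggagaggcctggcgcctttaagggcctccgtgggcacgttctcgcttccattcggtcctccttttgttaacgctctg
Gm33370, Mirt1 and Gm31415 held the PU.1 letters, in capitals. Gm33370 (chr5:96922100-96922399, minus strand) is the most abundant of the lincRNAs with these letters, and Mirt1 (chr19:53464747-53465046, minus strand) and Gm31415 (chr3:49062087-49062386, plus strand) were among those with lower values in the knockdown libraries.
Gm33370: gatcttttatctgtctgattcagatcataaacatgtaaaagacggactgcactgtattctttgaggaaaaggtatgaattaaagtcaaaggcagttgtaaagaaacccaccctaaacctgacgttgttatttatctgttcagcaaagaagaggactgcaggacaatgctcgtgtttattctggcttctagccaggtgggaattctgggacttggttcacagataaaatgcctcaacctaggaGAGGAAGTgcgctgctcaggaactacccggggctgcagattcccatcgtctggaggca
Mirt1: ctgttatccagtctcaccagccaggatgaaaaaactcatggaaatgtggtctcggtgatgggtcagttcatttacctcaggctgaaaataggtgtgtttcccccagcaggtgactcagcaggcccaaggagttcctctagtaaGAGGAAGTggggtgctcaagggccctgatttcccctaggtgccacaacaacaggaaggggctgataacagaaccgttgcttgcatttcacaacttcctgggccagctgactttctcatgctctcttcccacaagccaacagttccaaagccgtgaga
Gm31415: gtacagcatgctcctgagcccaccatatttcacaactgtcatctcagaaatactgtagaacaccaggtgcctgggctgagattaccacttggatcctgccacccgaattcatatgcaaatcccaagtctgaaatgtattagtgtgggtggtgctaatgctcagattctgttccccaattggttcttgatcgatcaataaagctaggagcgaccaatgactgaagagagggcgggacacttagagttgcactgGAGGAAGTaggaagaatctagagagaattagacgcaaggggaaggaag

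The letters searched, on both strands, were TATAAA (the TATA box), CCGGAAGT (ETS core), GCGCATGC (part of the NRF1 site), GGGCGGGG (GC box), TGACGTCA (cyclic AMP response element) and GAGGAAGT (PU.1). The ETS and PU.1 letters share GGAAGT but differ before it, so 1 position cannot match both. The PU.1 letters stood in 10 of the 80 lincRNA windows (12.5%), against 3.1% of 32544 distinct windows of the same length and 3.2% of 10770 windows of tested coding genes. In addition to the windows shown, they stood in those of 3300005D01Rik, Gm5547, 5031425F14Rik, F730311O21Rik, Gm12708, 2900076A07Rik and Gm14321. The RefSeq and GENCODE starts of these 10 lincRNAs lay at most 61 bases apart, and the letters stood from 189 bases before to 24 bases after the RefSeq start. None of the 13 windows of lincRNAs divergent from a coding gene held them. The response element letters stood in 5.0% of lincRNA windows (4 of 80), against 1.8% of all windows and 3.3% of coding ones. The GC box stood in 15% of lincRNA windows, against 17.7% of all windows and 33.0% of coding ones, and the TATA box in 13.8%, against 13.6% and 6.7%. The ETS core was found in 6.2%, against 3.9% and 9.0%, and the part of the NRF1 site in 1.2%, against 2.7% and 5.6%. The median GC content of the windows was 69.7% for divergent lincRNAs, 51.0% for the others and 53.0% for all windows. These are matches of letters, not binding sites. Only 54 of the 80 lincRNA windows had a RefSeq start within 100 bases of the GENCODE start, with a median GC content of 52.35%. The starts lay 58737 bases apart in Gm28050 and 1803 bases apart in the divergent Gm14230. Windows with distant starts may not be the promoter of the lincRNA measured, which limits the shares and GC medians above.

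Levels fell off steeply with rank, as the plot of levels by rank shows. Of the 192 lincRNAs, 85 lay between 1 and 2 FPKM, 65 between 2 and 5, 23 between 5 and 10, 16 between 10 and 100, and 3 above 100 FPKM, with a median of 2.14 FPKM. Just inside the threshold were Gm26901, 2700016F22Rik and Gm19385, with means of 1.01, 1.01 and 1.01 FPKM, and just outside it Gm39526, Mdrl and Gm32098, with 0.995, 0.984 and 0.984 FPKM. Of the lincRNAs, 49 have 1 exon in their longest transcript and 114 have 1 annotated transcript, and the median length was 1425 bases with 47.2% GC. Every autosome and the X chromosome carried at least 1, from 24 on chromosome 5 to 1 on chromosome 19.

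**Figure D1:**
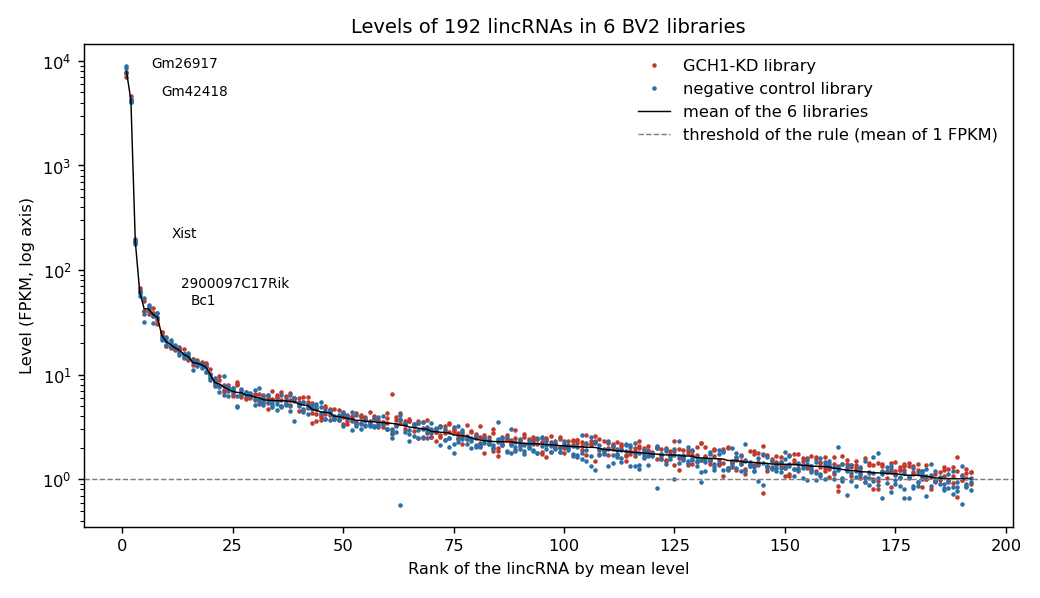
Levels of the 192 lincRNAs (y axis, FPKM, log axis) by rank of their mean (x axis), with a red point for each GCH1-KD library and a blue point for each negative control library. The line is the mean of the 6 libraries, and the dashed line is the threshold of 1 FPKM. Of these, 3 lie above 100 FPKM, and 85 lie between 1 and 2 FPKM.

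Each gene was compared between the groups with limma, a linear model fitted across all genes, with Benjamini-Hochberg (BH) adjusted p-values and a threshold of 0.05. By mean level, the most abundant were a pair of neighbouring rows on chromosome 17 that stand 616 bases apart on the plus strand. Gm26917 (ENSMUSG00000097971.3, chr17:39843013-39846341) was at 7023, 7782 and 7685 FPKM in the knockdown libraries and 8546, 7741 and 8947 FPKM in the controls, and the groups overlapped (knockdown minus control: log2 fold change -0.17, limma BH adjusted p = 0.472). Gm42418 (ENSMUSG00000098178.1, chr17:39846958-39848788) was at 4076, 4614 and 4161 FPKM in the knockdown libraries and 4234, 4046 and 4282 FPKM in the controls. RefSeq lists Gm42418 as a synonym of Rn18s-rs5, an 18S ribosomal RNA related sequence, and these libraries were depleted of ribosomal RNA. The pair held 4.95% to 5.38% of the summed FPKM in the knockdown libraries and 5.14% to 5.76% in the controls. The ratio of Gm26917 to Gm42418 was 1.69 to 1.85 in the knockdown libraries and 1.91 to 2.09 in the controls, which did not overlap. This ratio was not tested, and how often ratios of other genes did not overlap was not counted. The other 190 lincRNAs together held 0.458% to 0.483% in the knockdown libraries and 0.436% to 0.463% in the controls.

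Xist, the RNA that coats and silences an X chromosome in female cells, came next (ENSMUSG00000086503.4, chrX:103460366-103483254, minus strand). It was at 193, 185 and 185 FPKM in the knockdown libraries and 185, 199 and 177 FPKM in the controls, a log2 fold change of 0.01. 2900097C17Rik was at 66.8, 63.6 and 62.3 FPKM in the knockdown libraries, against 59.9, 63.6 and 56.7 FPKM in the controls, so 1 control library reached the knockdown values. Bc1, a short RNA polymerase III transcript known from neuronal dendrites, was at 40.2, 50.7 and 40.6 FPKM in the knockdown libraries and 32.2, 54.5 and 37.7 FPKM in the controls. Its spread between replicates was among the 6 largest of the 192. Gm10076 was at 39.3, 43.6 and 38.9 FPKM in the knockdown libraries, all above the controls at 36.4, 31.2 and 36.7 FPKM (log2 0.22). AU022793 was at 25.9, 24.2 and 25.5 FPKM in the knockdown libraries, all above the controls at 21.5, 22.4 and 23.4 FPKM (log2 0.16). In the other 5 of the 12 most abundant, Gm38399, Gm42047, Epb41l4aos, AU020206 and G730013B05Rik, the log2 fold change lay between -0.18 and -0.06.

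Several less abundant lincRNAs have known roles and are named here after their values were seen. 1810058I24Rik encodes a mitochondrial micropeptide that takes part in activation of the Nlrp3 inflammasome in macrophages. It was at 11.99, 12.8 and 12.6 FPKM in the knockdown libraries, above the controls at 10.6, 10.7 and 11.9 FPKM (log2 0.16, limma BH adjusted p = 0.379). Trp53cor1, known as lincRNA-p21 and induced by p53 beside Cdkn1a, was at 1.68, 1.57 and 1.95 FPKM in the knockdown libraries and 1.76, 1.75 and 1.56 FPKM in the controls. Lockd, which lies downstream of the cell cycle inhibitor gene Cdkn1b, was at 1.03, 1.29 and 1.16 FPKM in the knockdown libraries and 1.09, 1.32 and 1.19 FPKM in the controls. In both of these the groups overlapped. Dubr, known from muscle differentiation, had a log2 fold change of -0.08, and Bvht (Braveheart), known from heart differentiation, one of 0.19, with overlapping groups in both.

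The targeted gene Gch1 was at 3.20, 2.93 and 3.43 FPKM in the knockdown libraries, 44.8% of the controls at 6.89, 7.22 and 7.23 FPKM. It fell by 0.96 on the log2(FPKM + 1) scale of the fit (SE 0.06, adjusted p = 0.00542 in limma with BH adjustment). With the replicate number as a block, a pairing the labels do not state, 0 of 12222 genes passed the threshold, Gch1 included. An exact two-sided permutation test over the 6 libraries gave p = 0.1, below which a 3 against 3 design cannot go. Of the microglial markers listed, 10 of 11 were in the table (C1qa was not among its rows), with sums of 883 to 940 FPKM in the knockdown libraries and 934 to 951 FPKM in the controls. Of the markers listed for other cell types, no neuronal one was among its rows, while those present were Aldoc of the astrocyte list, Cnp of the oligodendrocyte list, Vwf and Flt1 of the endothelial list, Acta2 of the fibroblast and mural list and Lck of the lymphocyte list. Aldoc was at 24.7 to 26.3 FPKM in the knockdown libraries and 24.8 to 28.6 FPKM in the controls, the endothelial sum was 26.2 to 28.8 FPKM in the knockdown libraries and 26.4 to 27.4 FPKM in the controls, and the other lists summed to under 6 FPKM in every library. The depth estimated from the values was 6.32 to 7.61 Gb (gigabases aligned) in the knockdown libraries and 5.25 to 5.58 Gb in the controls, without overlap.

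Most lincRNAs had slightly higher values in the knockdown libraries, while no single one passed the test. The median log2 fold change of the 192 was 0.07, with 141 above and 51 below 0 and a range of -0.39 to 0.53. The same median was 0.01 over all 12222 genes tested, 0.00 over 10684 coding genes, 0.10 over 127 other lincRNA rows and 0.05 over 1195 noncoding genes that are not lincRNAs. In the limma fit, 0 of 192 passed a BH adjusted p of 0.05, with the lowest at 0.174, against 0.0818% of all genes tested. At an unadjusted p under 0.05, 31 lincRNAs were higher, against 6.47% of all genes, and 5 were lower, against 4.82%, which is 16.1% and 2.60% of the 192. Other noncoding genes had similar shares in this fit. These were 18.1% higher and 1.57% lower among other lincRNA rows, and 13.8% higher and 2.59% lower among noncoding genes that are not lincRNAs. Without GCH1-KD replicate 1 the count of higher lincRNAs was 18, and without negative control replicate 1 or 2 the count of lower ones was 8. Without these 3 libraries in turn, 1036, 1066 and 1657 of all 12222 genes passed that p in either direction, against 1380 with all 6. All 3 knockdown libraries lay above all 3 controls in 31 lincRNAs (16.1%), against 9.99% of all genes, and below them in 7 (3.65%), against 8.36% of all genes. Among other lincRNA rows these shares were 21.3% and 2.36%, among noncoding genes that are not lincRNAs 16.7% and 3.68%, and among the 179 coding neighbours, described below, 5.03% and 7.26%. Fold changes are on the log2(FPKM + 1) scale, which understates them at these low levels.

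**Figure D2:**
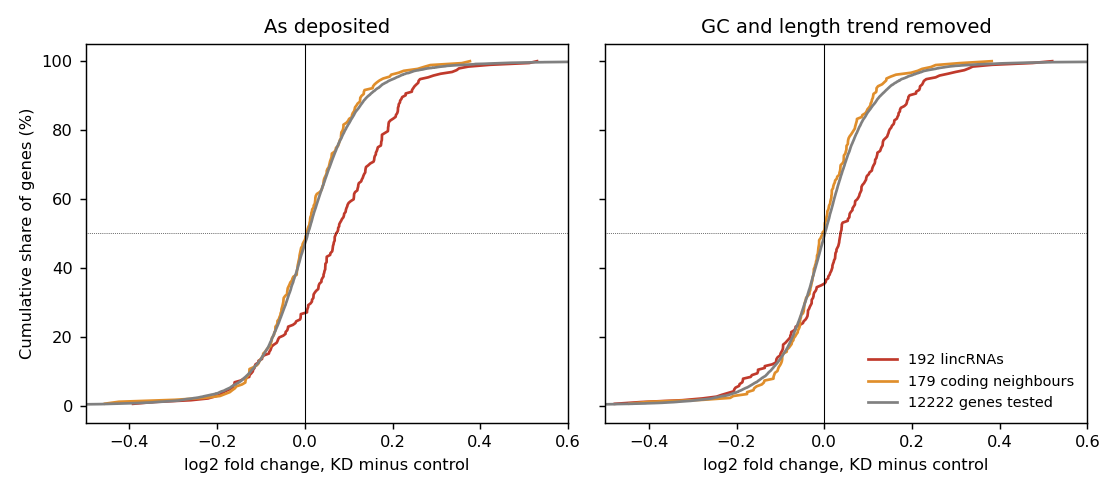
Cumulative share of genes (y axis, percent) by log2 fold change, knockdown minus control (x axis), for 192 lincRNAs in red, their 179 distinct coding neighbours in orange and 12222 tested genes in grey. On the left, values as deposited, the curve of the lincRNAs crosses 50% at 0.07 and that of the neighbours at 0.01. On the right, after removal of a GC and length trend, they cross at 0.04 and 0.00.

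The 8 lincRNAs with higher values, groups that did not overlap and the smallest p were led by 6720427I07Rik (ENSMUSG00000097375.3, chr13:48532905-48546500, minus strand). It was at 8.46, 7.996 and 8.06 FPKM in the knockdown libraries and 4.97, 6.28 and 4.90 FPKM in the controls, with negative control replicate 2 the nearest to the knockdown values. The difference was 0.53 on the log2 scale (limma BH adjusted p = 0.174, SE 0.09), and without negative control replicate 2 it was 0.63 (adjusted p = 0.024). Over all alternatives tried its limma BH adjusted p lay between 0.024 and 0.440.

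2010320M18Rik (ENSMUSG00000100691.1, chr8:70776815-70777823, plus strand) starts 102 bases from Pik3r2, which encodes a regulatory subunit of phosphoinositide 3-kinase, and points away from it. It was at 3.60, 3.74 and 3.61 FPKM in the knockdown libraries and 2.32, 2.74 and 2.94 FPKM in the controls (log2 0.35, SE 0.07, limma BH adjusted p = 0.261). Gm20186, divergent from Lsm8, a component of the ring bound to U6 small nuclear RNA, was at 2.01, 2.30 and 2.10 FPKM in the knockdown libraries and 1.77, 1.26 and 1.36 FPKM in the controls (log2 0.35). In 2010320M18Rik the gap between the groups was wider than the range within either group, and in Gm20186 it was narrower than both ranges.

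5430416N02Rik, upstream of the coat protein gene Sec31a, was at 2.81, 3.41 and 3.44 FPKM in the knockdown libraries and 2.05, 2.48 and 2.49 FPKM in the controls (log2 0.34). Gm17484, which overlaps the lipase gene Ddhd2 on the other strand, was at 1.90, 1.67 and 1.95 FPKM in the knockdown libraries and 1.23, 1.41 and 1.31 FPKM in the controls (log2 0.29). Gm26698, upstream of Irf2bpl, was at 3.46, 3.82 and 4.27 FPKM in the knockdown libraries and 3.04, 3.06 and 3.002 FPKM in the controls (log2 0.26). The controls of Gm26698 lay close together, while its knockdown libraries spread more widely. Gm44751, downstream of the lysosomal protease gene Ctsc, was at 1.30, 1.08 and 1.21 FPKM in the knockdown libraries and 0.827, 0.894 and 0.789 FPKM in the controls (log2 0.26). D730003I15Rik, near the stress-induced transcription factor gene Atf3, was at 4.12, 3.90 and 4.07 FPKM in the knockdown libraries and 3.46, 3.36 and 3.05 FPKM in the controls (log2 0.23). The limma BH adjusted p of these 5 lay between 0.262 and 0.307.

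**Figure D3:**
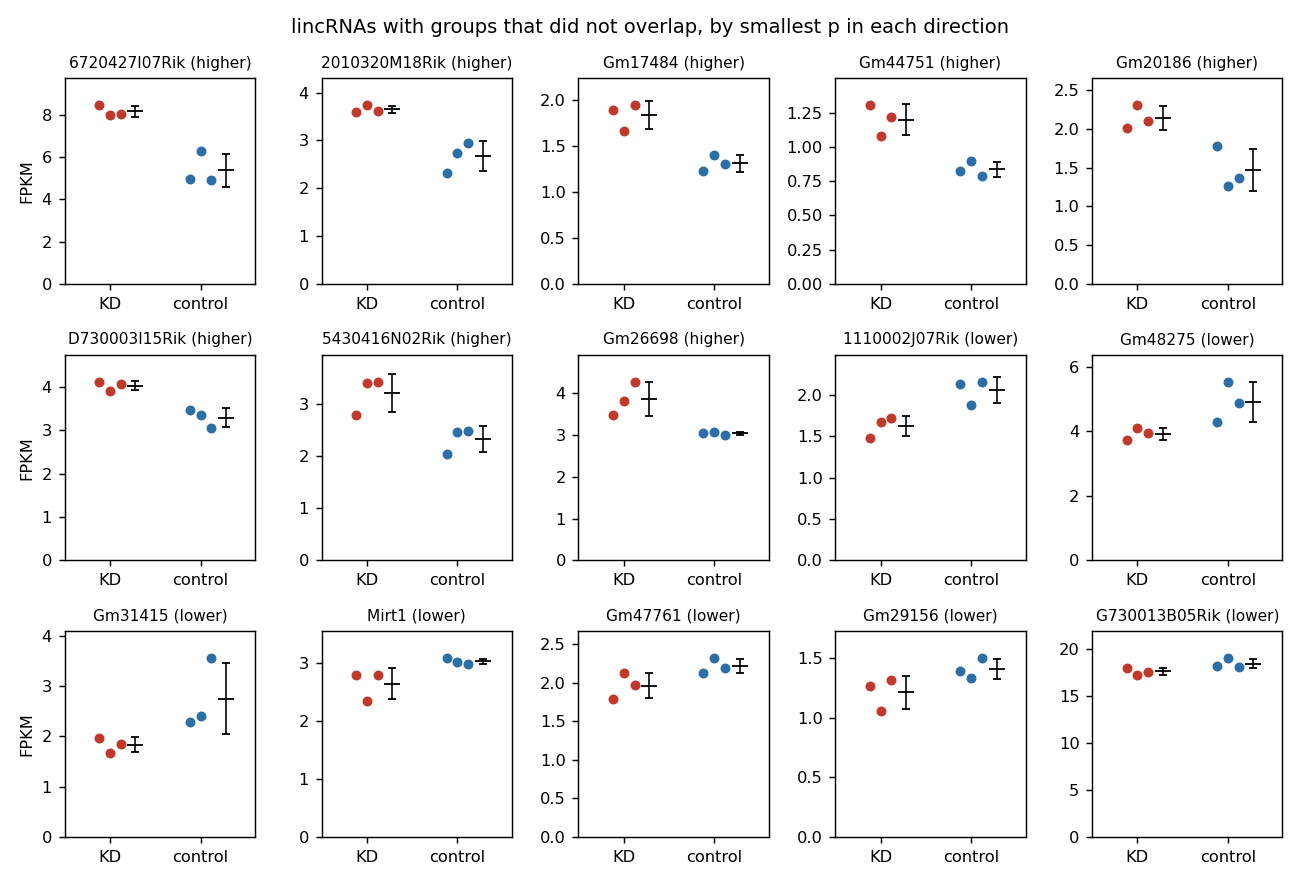
FPKM in each library (y axis, from 0) for the 15 lincRNAs whose groups did not overlap and that had the smallest p in each direction, with GCH1-KD libraries in red on the left of each panel and negative controls in blue on the right. The bar beside the points is the mean with the SD of 3 libraries. In 6720427I07Rik the knockdown libraries lie between 7.996 and 8.46 FPKM and the controls between 4.90 and 6.28 FPKM.

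Lower values without overlap were found in 7 lincRNAs. The nearest measured coding gene of Gm31415 (chr3:49062378-49085259, plus strand) is the cystine transporter gene Slc7a11, which lies well away at chr3:49892526-50443614. Gm31415 was at 1.97, 1.67 and 1.86 FPKM in the knockdown libraries and 2.29, 2.42 and 3.56 FPKM in the controls. The log2 difference of -0.39 (limma BH adjusted p = 0.358, SE 0.13) rested in part on negative control replicate 3, and without that library it was -0.24. Gm48275, of which Ascc3 is the neighbour, was at 3.72, 4.09 and 3.94 FPKM in the knockdown libraries and 4.29, 5.53 and 4.89 FPKM in the controls (log2 -0.26). 1110002J07Rik, downstream of Reep3, was at 1.49, 1.67 and 1.72 FPKM in the knockdown libraries and 2.14, 1.88 and 2.16 FPKM in the controls (log2 -0.22). Mirt1, a transcript named for myocardial infarction in mouse, was at 2.81, 2.35 and 2.81 FPKM in the knockdown libraries and 3.09, 3.02 and 2.995 FPKM in the controls (log2 -0.15). In Mirt1 the controls lay close together and GCH1-KD replicate 2 stood lowest. Gm29156, Gm47761 and G730013B05Rik completed the set, with log2 fold changes of -0.12, -0.12 and -0.06 (limma BH adjusted p between 0.524 and 0.563).

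The lincRNAs were then sorted by how they lie to the nearest annotated coding gene. Of the 192, 30 overlap it (18 on the opposite strand), 75 lie on the same strand (39 upstream and 36 downstream), and 25 are divergent with starts at most 5000 bases apart. A further 32 are divergent at a larger distance and 30 convergent. The strand setting of the authors' counting is not given in the sources used here, so reads of the 18 overlapping pairs on opposite strands may not be separated.

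Divergent lincRNAs had the highest median difference of these settings. Of the 25, 21 had a positive log2 fold change, with a median of 0.11, against 0.08 for overlapping, 0.05 for same-strand and 0.07 for the remaining lincRNAs. At an unadjusted p under 0.05, 8 were higher (32.0%, against 6.47% of all genes) and 1 was lower (4.0%, against 4.82%). The groups did not overlap in 8, all higher (32.0%, against 9.99% of all genes), and in 0 lower (against 8.36%). Their starts lay a median of 168 bases from that of the coding gene, and their median level was 1.74 FPKM. After removal of the GC and length trend described below, the median was 0.08 for divergent and also 0.08 for overlapping lincRNAs, 0.02 for same-strand and 0.04 for the remaining ones, and 21 of the 25 divergent ones were again positive. The difference between these settings was not tested.

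Of the divergent lincRNAs without overlap, 2010320M18Rik and Gm20186 are described above and Gm17399 below, and the other 5 start 376 to 3479 bases from their coding gene and were named after their values were seen. 4632404H12Rik, 376 bases from the ubiquitin-conjugating enzyme gene Ube2q1, was at 6.34, 5.96 and 6.09 FPKM in the knockdown libraries and 4.63, 5.58 and 5.26 FPKM in the controls (log2 0.21). 2610037D02Rik, 3023 bases from the chromatin remodelling gene Arid2, was at 2.39, 2.21 and 2.37 FPKM in the knockdown libraries and 1.63, 2.01 and 1.70 FPKM in the controls (log2 0.26). Gm20045, 2968 bases from the death effector domain gene Dedd, was at 1.73, 1.38 and 1.88 FPKM in the knockdown libraries and 1.20, 1.30 and 1.20 FPKM in the controls (log2 0.25). In these the lowest knockdown library lay only a little above the highest control. Gm21781, 3479 bases from the zinc finger gene Zbtb2, was at 2.55, 2.17 and 2.74 FPKM in the knockdown libraries and 1.86, 2.13 and 1.76 FPKM in the controls (log2 0.25). Gm47204, 3066 bases from the Wnt coactivator gene Bcl9l, was at 2.17, 2.10 and 1.94 FPKM in the knockdown libraries and 1.93, 1.596 and 1.47 FPKM in the controls (log2 0.21). These last groups nearly touched, at 2.17 against 2.13 FPKM in Gm21781 and 1.94 against 1.93 FPKM in Gm47204. The 1 divergent lincRNA that was lower at an unadjusted p under 0.05 was A330069E16Rik, 164 bases from the DNA damage recognition gene Ddb2. It was at 3.64, 4.65 and 4.21 FPKM in the knockdown libraries and 5.21, 4.65 and 4.99 FPKM in the controls (log2 -0.21), and Ddb2 at 4.24, 3.69 and 4.66 FPKM in the knockdown libraries and 4.38, 5.51 and 4.94 FPKM in the controls (log2 -0.19). The lincRNA and Ddb2 thus had log2 differences of like size, with overlapping groups in both.

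The 8 with the closest starts show both directions. Gm37933, 55 bases from the ribosomal protein gene Rps3a1, was at 1.52, 2.22 and 2.20 FPKM in the knockdown libraries and 1.18, 1.54 and 0.948 FPKM in the controls (log2 0.42), with overlapping groups. Rps3a1 itself was at 721, 737 and 730 FPKM in the knockdown libraries and 709, 723 and 735 FPKM in the controls (log2 0.01). Gm17399, 54 bases from Cmc1, a mitochondrial assembly gene, was at 1.72, 1.76 and 1.88 FPKM in the knockdown libraries, just above the controls at 1.66, 1.67 and 1.57 FPKM (log2 0.08). Cmc1 was at 18.3, 18.8 and 17.3 FPKM in the knockdown libraries and 16.0, 16.2 and 10.4 FPKM in the controls (log2 0.36), with negative control replicate 3 the lowest. Gm14230, 115 bases from the transcription factor gene Tgif2, was at 1.70, 1.80 and 1.83 FPKM in the knockdown libraries and 1.69, 1.76 and 1.69 FPKM in the controls (log2 0.03). Tgif2 varied far more than its divergent partner, at 1.70, 1.78 and 2.18 FPKM in the knockdown libraries and 4.11, 1.23 and 4.07 FPKM in the controls (log2 -0.42). Gm26799, 91 bases from the ubiquitin ligase gene Rad18, had a log2 fold change of -0.19, and 1110006O24Rik, 92 bases from the small GTPase gene Rab35, one of -0.08. 1110019D14Rik and Gm16001, 8 bases from 2610001J05Rik and 33 bases from Ogfod2, had 0.08 and 0.13, with overlapping groups.

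Each lincRNA was next set against its nearest measured coding gene. There were 179 distinct neighbours, and 26 lincRNAs shared one. The lincRNA was below its neighbour in 156 of 192 pairs, with a median difference of -1.73 in log2 mean FPKM (no pseudocount). The neighbours had a median log2 fold change of 0.01, and 0 passed the limma BH adjusted threshold (lowest 0.269), with 3 higher (1.68%, against 6.47% of all genes) and 8 lower (4.47%, against 4.82%) at an unadjusted p under 0.05. Across the 192 pairs, both had a positive log2 fold change in 73, only the lincRNA in 68, only the neighbour in 25 and neither in 26. The fold changes of lincRNA and neighbour had a Pearson's r of -0.05 and a Spearman's rho of 0.01 across these pairs, which share the 6 libraries and, in some cases, a neighbour. The settings refer to the nearest annotated coding gene, which was itself the measured neighbour in 143 of the 192 pairs. By setting, Pearson's r was 0.51 in the 18 lincRNAs overlapping a coding gene on the opposite strand (itself the measured neighbour in 11). It was -0.26 in the 12 that overlap one on the same strand (10) and 0.17 in the divergent ones (25 of 25). In the 75 on the same strand without overlap it was -0.18, and there the annotated gene was the measured neighbour in only 51.

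**Figure D4:**
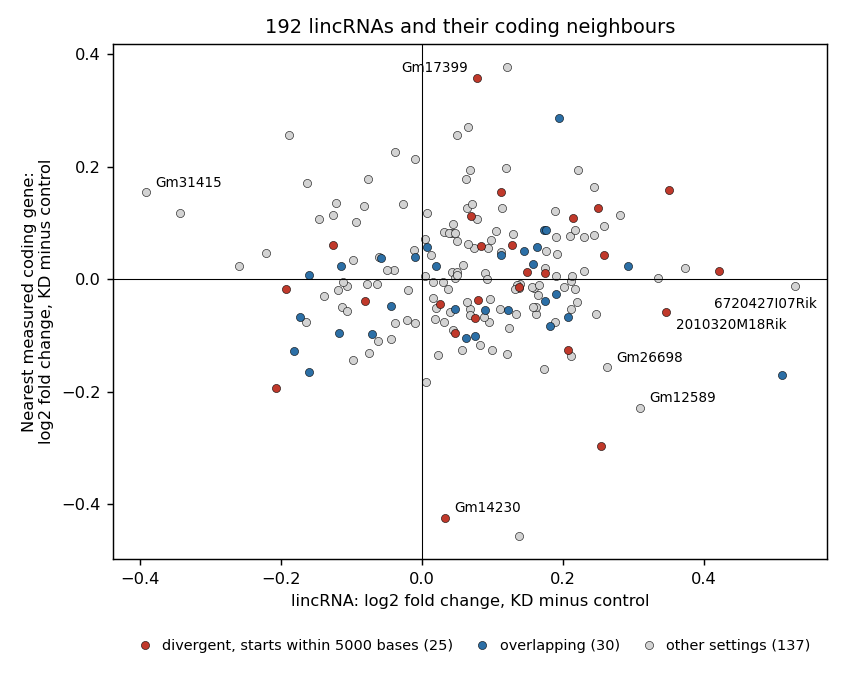
Log2 fold change, knockdown minus control, of each of the 192 lincRNAs (x axis) and of its nearest measured coding gene (y axis). Red points are the 25 divergent lincRNAs, blue points the 30 overlapping ones and grey points the other 137. Points lie right of 0 in 141 pairs, above and below the horizontal line in similar numbers (73 and 68).

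The difference of lincRNA minus neighbour was tested in all 1514 tested noncoding genes, each against its own coding neighbour. No pair passed a limma BH adjusted p of 0.05 (0% of 1514), and the lowest among the lincRNAs was 0.105. At an unadjusted p under 0.05 the difference was positive in 22 pairs (11.5% of 192), against 11.6% of all noncoding pairs, and negative in 6 (3.12%), against 2.38%. Both shares are near those of noncoding genes in general, as is the median difference, 0.07 for the lincRNAs and 0.06 for all noncoding pairs.

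The smallest p in that test was that of 6720427I07Rik and A830005F24Rik, with a difference of 0.54 (SE 0.09, limma BH adjusted p = 0.105). The neighbour was weak, at 0.585, 0.502 and 0.566 FPKM in the knockdown libraries and 0.464, 0.689 and 0.547 FPKM in the controls, with overlapping groups. Gm12589 and Metrnl, which encodes the secreted protein meteorin-like, differed by 0.54 (adjusted p = 0.111, limma). They do not adjoin: Metrnl lies at chr11:121701544-121716306 and the promoter window of Gm12589 at chr11:121802771-121803070. Gm12589 was at 1.34, 1.39 and 1.22 FPKM in the knockdown libraries and 1.16, 0.812 and 0.668 FPKM in the controls, while Metrnl was at 14.4, 15.1 and 14.6 FPKM in the knockdown libraries and 18, 18.4 and 15.9 FPKM in the controls. Every knockdown library lay above all controls for the lincRNA and below all controls for the neighbour. Gm26698 and Irf2bpl, a transcriptional regulator gene, differed by 0.42 (adjusted p = 0.171, limma), with Irf2bpl at 40.9, 41.2 and 41.2 FPKM in the knockdown libraries and 47.2, 44.4 and 46.2 FPKM in the controls. 2010320M18Rik and Pik3r2 differed by 0.41 (adjusted p = 0.195, limma), with Pik3r2 at 18.1, 18.6 and 19.2 FPKM in the knockdown libraries and 20.3, 18.6 and 19.5 FPKM in the controls.

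Replicate spread was wider in the lincRNAs than in their neighbours, at a median SD of 0.12 against 0.08 on the log2 scale, and their levels were lower. Large fold changes in 2 lincRNAs rested on 1 library each, and both are named after their values were seen. Gm42743, which overlaps the histone gene Hist2h2bb on the same strand, was at 3.45, 4.27 and 3.66 FPKM in the knockdown libraries and 0.570, 3.73 and 4.08 FPKM in the controls. Its log2 fold change was 0.51, and -0.04 without negative control replicate 1. A530017D24Rik was at 3.06, 2.74 and 6.51 FPKM in the knockdown libraries and 2.99, 2.76 and 2.49 FPKM in the controls. Its log2 fold change was 0.37, and 0.06 without GCH1-KD replicate 3.

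The shift of the lincRNAs was also set beside other properties of the libraries. Their median deviation from each gene's mean was 0.08, 0.02 and 0.02 in the knockdown libraries and -0.04, -0.01 and -0.07 in the controls, while that of the neighbours was 0.02, -0.02 and -0.01 in the knockdown libraries and -0.01, 0.03 and -0.02 in the controls. Over 10684 coding genes, the Spearman's rho of the deviation with GC content was -0.36, -0.20 and 0.06 in the knockdown libraries and 0.27, -0.25 and 0.42 in the controls. The library with the highest lincRNA median, GCH1-KD replicate 1, thus had the lowest rho, and the one with the lowest median, negative control replicate 3, the highest. That order did not hold in all libraries. Negative control replicate 2 had a rho of -0.25 and a lincRNA median of -0.01, against -0.20 and 0.02 in GCH1-KD replicate 2. Depth was 7.61, 6.86 and 6.32 Gb in the knockdown libraries and 5.58, 5.25 and 5.52 Gb in the controls, in order of replicate number. Negative control replicate 2, with the lowest depth, had the highest lincRNA median of the controls. In the other libraries the lincRNA median was higher where depth was higher. The median GC content was 47.2% in the lincRNAs and 47.4% in their neighbours. After removal of the GC and length trend from each library, the median log2 fold change of the 192 was 0.04, with 125 above 0. At an unadjusted p under 0.05, 25 were then higher (13.02%, against 6.56% of all genes) and 13 lower (6.77%, against 5.53%). In the 64 lincRNAs of lowest GC content that median was 0.11, against 0.06 in the middle and highest groups of 64, and after the removal the 3 medians were 0.03, 0.03 and 0.06, from lowest to highest GC content. Depth was higher in all 3 knockdown libraries, so it and the knockdown cannot be told apart. The part of GC content in the shift beyond these values was not tested.

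**Figure D5:**
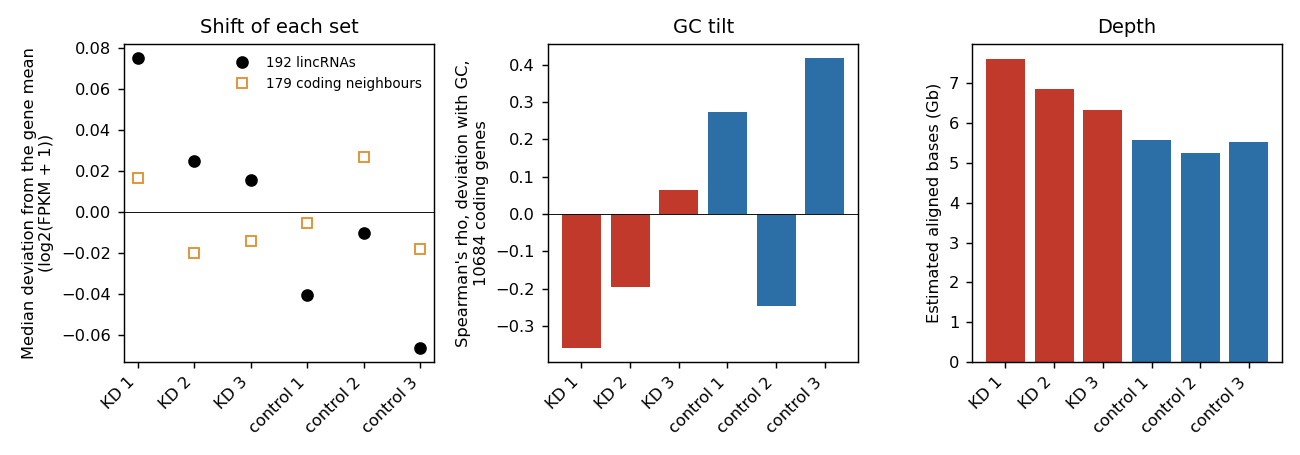
Measures of each library, with the GCH1-KD libraries on the left and the negative controls on the right of each panel. The left panel gives the median deviation of 192 lincRNAs (black) and 179 coding neighbours (orange squares) from each gene's mean on the log2 scale, the middle panel Spearman's rho of the deviation with GC content over 10684 coding genes, and the right panel the estimated depth (Gb). The lincRNA median is positive in all 3 knockdown libraries and negative in all 3 controls, and depth is 6.32 to 7.61 Gb in knockdown libraries and 5.25 to 5.58 Gb in controls.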

How the data were processed

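RNA was measured in 3 GCH1-KD and 3 negative control libraries of BV2 cells, grouped by the genotype label. The unit of the deposited table is not stated. Its values were taken as FPKM from the authors: sums per library are 224291 to 230292, values are not whole, and value times transcript length falls on multiples of a step. Alignment and quantification tools named per the submitters' processing notes are HISAT2, StringTie and edgeR (no versions), with the build hg38, although identifiers are mouse Ensembl genes. The strand setting is not given in the sources used here. No counts were available, so depth was estimated from that step, on which 72.6% to 75.4% of values in 898 to 970 genes lay within 0.1 of a whole number, against about 20.0% at other steps. The lowest mean of the higher group in the table was 0.501 FPKM, so weaker genes were not analysed here.

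Identifiers were matched to GENCODE M21 (GRCm38) without their version (12300 of 12327, and 10904 also with it). The 12222 genes reaching 0.5 FPKM in 3 or more of the 6 libraries entered a fit by limma 3.58.1 (R 4.3.3) of log2(FPKM + 1), with a mean-variance trend, no covariate and Benjamini-Hochberg (BH) adjustment over all of them. All 192 lincRNAs entered. The nearest coding neighbour was the tested coding gene with the smallest gap between gene bodies, and the difference of log2 values was fitted the same way for 1514 noncoding genes. Motifs were counted in RefSeq windows by exact letters. Named were Gch1, the 12 most abundant lincRNAs, up to 8 per direction by p among those without overlap, 8 divergent ones with the closest starts, 4 pairs by p, 3 genes each side of the threshold, and their neighbours. The members and lists were chosen with earlier results of these data known. Alternatives were the replicate number as a block, each library left out, no filter, means of at least 2 and 5 FPKM, quantile normalization, scaling by median-of-ratios, 0.1 or 0.5 as pseudocount, robust moderation, no mean-variance trend, the neighbour chosen by start site, and removal of a loess trend on GC content and length. The test was tried on simulated data. Python 3.11.15 (scipy 1.17.1, pandas 2.3.3, numpy 2.4.6) did the rest.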

Additional observations from a re-analysis of the deposited data

How the results depend on the processing

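The median log2 fold change of the lincRNAs (0.07) stayed positive under every alternative run, and the count past the adjusted threshold stayed 0 in all but 1. It was 0.037 with the GC and length trend removed and 0.10 with a pseudocount of 0.1, and 0.06 to 0.10 with 1 library left out, against -0.01 to 0.02 for the neighbours. The median of lincRNA minus neighbour (0.07) was 0.048 with the trend removed, 0.054 for means of at least 5 FPKM, 0.084 and 0.11 with pseudocounts of 0.5 and 0.1, and 0.053 to 0.073 with 1 library left out, where 0 to 0 pairs passed. At an unadjusted p under 0.05, 13 lincRNAs were lower with the trend removed and 9 with quantile normalization. Over all 12222 genes, 1478 and 1418 passed that p in either direction under these settings, against 1380 in the main fit. A mean of at least 2 FPKM left 107 lincRNAs and one of at least 5 left 42. Of the 42, 7 were higher and 2 lower at that p, and 6 and 1 without overlap. In the fit of 7079 genes with a mean of at least 5, 791 passed that p in either direction. The share of these 7079 genes without overlap was not counted, so the counts of 6 and 1 cannot be set against it. With 1 library left out, 0 to 1 passed (1 being 6720427I07Rik, log2 0.63, without negative control replicate 2). At an unadjusted p under 0.05, 18 to 34 lincRNAs were then higher and 4 to 8 lower. Over all 12222 genes, 1036 to 1657 passed that p in either direction. Without overlap, 36 to 56 lincRNAs were higher and 10 to 19 lower, the smaller group making overlap rarer. The share of all genes without overlap was not counted with a library left out, so these last counts cannot be set against it. After each gene's group mean was subtracted, the deviations of libraries with the same number correlated at 0.10, 0.06 and 0.09. Each was highest with its own number, though the labels state no pairing. Deviations sum to 0 over the libraries of a group, so these correlations are not independent of one another. With the replicate block, 0 lincRNAs and 0 of 12222 genes passed, against 10 genes without it. At an unadjusted p under 0.05 in that fit, 27 lincRNAs were higher and 7 lower. Gch1 (log2 -0.96) had a limma BH adjusted p of 0.0604 there. In the block fit, 1330 of 12222 genes passed that unadjusted p in either direction. Of 584 values of named genes under the alternatives, 582 kept their side of the threshold, and 12 uncalled ones changed sign. The causes of these changes were not tested. The depth of a single lincRNA limits precision: the lowest mean read depth in a library was a median of 9.98 and as little as 3.03.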
